A study of Homo sapiens with 6 samples.

Results

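The genes described here are 38 genes of glycolysis and of the response to low oxygen, listed by name, in a cultured human leukaemia line, KOPTK1, derived from T-cell acute lymphoblastic leukaemia (T-ALL). Of the 38, 35 were measured, out of 19775 genes tested in all. The lactate transporter genes SLC16A1 and SLC16A3 and the carbonic anhydrase gene CA9 were not analysed here. Each gene was read from the probe set, among those annotated to that gene alone, with the highest mean over the 6 arrays. The members were ordered by role into 2 glucose transporters, 16 core enzymes of the route from glucose to lactate, 5 regulatory kinases, 11 hypoxia targets outside glycolysis and HIF1A.

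The study compared KOPTK1 cells cultured for 48 h with 1 µM PD0332991, an inhibitor of the cell cycle kinases CDK4 and CDK6 also known as palbociclib (n = 3), with cells given vehicle for the same time (n = 3). Both groups grew in RPMI-1640 with fetal calf serum, and the submitters call the replicates biological triplicates of this 1 line. Total RNA was hybridised to Affymetrix expression arrays with 54675 probe sets, and the array medians lay between 49.1 and 54.3 intensity units. The number of arrays limits the precision.

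Glycolysis splits glucose into pyruvate and yields ATP without oxygen. Lactate dehydrogenase then turns pyruvate into lactate, which regenerates the NAD+ that the route consumes. When oxygen is scarce, the prolyl hydroxylases EGLN1 to EGLN3 stop marking the alpha subunits of hypoxia-inducible factor (HIF) for destruction by VHL, and HIF then binds a short DNA core, ACGTG or GCGTG, near glycolytic, angiogenic and mitophagy genes. MYC also drives many of the glycolytic genes in lymphoid leukaemia, and its E-box, CACGTG, contains the letters of the HIF core.

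The 3 arrays of each group correlated at Pearson r 0.993 to 0.996 across genes, and arrays of different groups at 0.976 to 0.979. MKI67, a marker of dividing cells, averaged 258 with PD0332991 and 3187 with vehicle. T-cell genes were well expressed in every array, CD3D at a mean of 8065 with PD0332991 and 7656 with vehicle. The summed intensity of 13 measured T-cell markers was 40020 to 41284 with PD0332991 and 32127 to 34769 with vehicle. Of these 13, 9 rose in limma (adjusted p under 0.05), where 15.6% of all 19775 genes rose. Among the defining markers of other cell types, the myeloid gene LYZ stood at 14.2 with PD0332991 and 12.3 with vehicle, and the B-cell gene MS4A1 at 38.7 and 49.5. The myeloid gene MPO was called lower, at 83.8 with PD0332991 and 104 with vehicle, and the B-cell gene BLK higher, at 320 and 241. CD79A, a B-cell receptor gene that T-ALL cells can express, was at 543 with PD0332991 and 275 with vehicle. Summed marker intensities were 900 to 1077 with PD0332991 and 596 to 694 with vehicle for 5 of 6 B-cell markers, and 215 to 230 against 246 to 261 for 5 of 7 myeloid markers. They were 769 to 877 against 564 to 603 for 6 NK-cell markers, mostly NKG7 (646 with PD0332991, 413 with vehicle). For 6 stromal and endothelial markers they were 2086 to 2172 against 1465 to 1604, mostly PECAM1 (1912 with PD0332991, 1301 with vehicle). For 2 of 6 erythroid markers they were 176 to 230 against 185 to 234. The part of these shifts in the results below was not tested. In bulk RNA, fewer cells with a transcript and less of it per cell cannot be told apart.

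Promoter sequences of a few members are shown for the HIF core letters in them. The 250 bases before the start of transcription, from RefSeq (GRCh38.p14), are shown for ALDOC, ENO2, BNIP3, PGK1, LDHA and PGAM1, whose RNA fell with PD0332991, and for HK2 and LDHB, which did not pass the test. They were chosen with their matches known, so that both kinds of gene appear with matches and without them: PGAM1 fell and its window holds none, while HK2 did not pass and its window holds 6. They are written 5′ to 3′ on the gene's own strand, and capitals mark each ACGTG or GCGTG on either strand. A CACGTG holds ACGTG on both strands and was counted as a match on each. Matches therefore outnumber the runs of capitals in windows that hold CACGTG.
ALDOC: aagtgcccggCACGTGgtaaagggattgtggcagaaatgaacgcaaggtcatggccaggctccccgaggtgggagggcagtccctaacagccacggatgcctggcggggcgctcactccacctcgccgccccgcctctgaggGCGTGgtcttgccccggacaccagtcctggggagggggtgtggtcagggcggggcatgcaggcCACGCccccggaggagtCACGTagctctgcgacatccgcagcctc
ENO2: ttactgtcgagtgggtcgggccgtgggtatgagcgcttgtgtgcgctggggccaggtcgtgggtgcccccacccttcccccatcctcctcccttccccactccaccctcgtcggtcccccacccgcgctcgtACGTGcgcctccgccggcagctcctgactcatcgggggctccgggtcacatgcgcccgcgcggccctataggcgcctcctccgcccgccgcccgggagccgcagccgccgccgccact
BNIP3: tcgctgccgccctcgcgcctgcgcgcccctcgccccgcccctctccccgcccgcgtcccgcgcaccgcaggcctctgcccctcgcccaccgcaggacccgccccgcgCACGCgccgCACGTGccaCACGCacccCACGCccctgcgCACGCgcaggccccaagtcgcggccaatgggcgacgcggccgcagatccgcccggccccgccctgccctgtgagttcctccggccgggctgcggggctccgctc
PGK1: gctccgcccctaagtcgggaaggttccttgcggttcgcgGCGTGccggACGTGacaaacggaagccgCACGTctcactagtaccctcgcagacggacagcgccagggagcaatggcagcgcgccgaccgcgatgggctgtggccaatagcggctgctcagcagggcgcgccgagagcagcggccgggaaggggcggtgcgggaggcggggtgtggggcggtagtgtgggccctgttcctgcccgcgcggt
LDHA: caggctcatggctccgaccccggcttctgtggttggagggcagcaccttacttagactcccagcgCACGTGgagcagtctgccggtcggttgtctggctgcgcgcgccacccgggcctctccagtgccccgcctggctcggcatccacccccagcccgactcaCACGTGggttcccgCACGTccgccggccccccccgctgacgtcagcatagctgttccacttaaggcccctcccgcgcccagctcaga
PGAM1: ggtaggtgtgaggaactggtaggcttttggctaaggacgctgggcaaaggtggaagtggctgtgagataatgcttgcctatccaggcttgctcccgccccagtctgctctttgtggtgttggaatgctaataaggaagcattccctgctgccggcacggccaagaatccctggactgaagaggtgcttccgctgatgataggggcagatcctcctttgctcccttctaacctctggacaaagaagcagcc
HK2: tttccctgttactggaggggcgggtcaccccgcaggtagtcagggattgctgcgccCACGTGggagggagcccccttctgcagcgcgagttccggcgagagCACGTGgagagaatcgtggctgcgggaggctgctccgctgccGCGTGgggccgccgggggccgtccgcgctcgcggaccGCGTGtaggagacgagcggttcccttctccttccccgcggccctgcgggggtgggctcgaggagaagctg
LDHB: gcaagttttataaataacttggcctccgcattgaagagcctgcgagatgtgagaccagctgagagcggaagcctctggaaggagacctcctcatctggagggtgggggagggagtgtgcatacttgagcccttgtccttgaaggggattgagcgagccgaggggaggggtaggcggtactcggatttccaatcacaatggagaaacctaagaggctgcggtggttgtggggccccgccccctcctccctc

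ALDOC is on chromosome 17 at chr17:28576896-28577145, minus strand, ENO2 on chromosome 12 at chr12:6914330-6914579, plus strand, and BNIP3 on chromosome 10 at chr10:131981924-131982173, minus strand. PGK1 is on the X chromosome at chrX:78103998-78104247, plus strand. The LDHA window is 1 of 2 in the table, with 5 matches where the other has 1, and lies at chr11:18394313-18394562, plus strand. PGAM1 is on chromosome 10 at chr10:97427568-97427817, plus strand. The HK2 window is likewise 1 of 2, with 6 matches where the other has 3, and lies at chr2:74834920-74835169, plus strand. LDHB lies at chr12:21657843-21658092, minus strand, and its window holds no match. The BNIP3 window holds 6 matches between 143 and 104 bases before the start, the ENO2 window 1 match at 118 bases before it.

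Of the members that fell, 20 had a promoter in the table, and 15 of these held ACGTG in at least 1 window, as did 4 of 10 members that did not pass or rose, and 25.6% of genes tested. Either core, ACGTG or GCGTG, was in 19 of the 20, in 7 of the 10 and in 57.2% of genes tested. Part of the members were listed as hypoxia targets, so a share above that of all genes is no independent result. ACGTG (with CACGT for the other strand) was in 20.4% of the 21490 windows of genes tested and GCGTG (with CACGC) in 38.4%. The E-box CACGTG, which overlaps ACGTG on both strands, was in 7.38% of them. Of the 26 windows of members that fell, 17 held ACGTG, 11 held GCGTG and 7 held CACGTG. Of the 28 windows of members that did not pass or rose, 5, 8 and 1 held them. The median G and C content was 71.2% in the windows of members that fell, 65.0% in those of the others and 62.0% in those of genes tested. The part of base composition in these shares was not tested. Several windows of a gene overlap, and a match is only these letters in this window.

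Most of the measured genes fell with PD0332991. Of 35 members, 22 fell, 3 rose and 10 did not pass (limma, adjusted p under 0.05 over all 19775 genes), where 29.3% of all genes were called, 13.6% falling and 15.6% rising. The share that fell was 62.9%. All 35 lay among the brighter genes, where 29.0% fell when those were tested alone, with 22 members among them. In that test 3379 of the 10223 brighter genes rose. The median log2 fold change was −0.36 over the members and 0.01 over all genes. The 3 PD0332991 arrays lay below the 3 vehicle arrays for 24 members and above them for 6, against 20.0% and 23.0% of all genes, 43.0% in either direction. A decrease of at least 2-fold was seen in 8 members and in 2.55% of all genes. Fold changes are on the log2(intensity + 16) scale, which understates the change of dim genes.

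**Figure D1:**
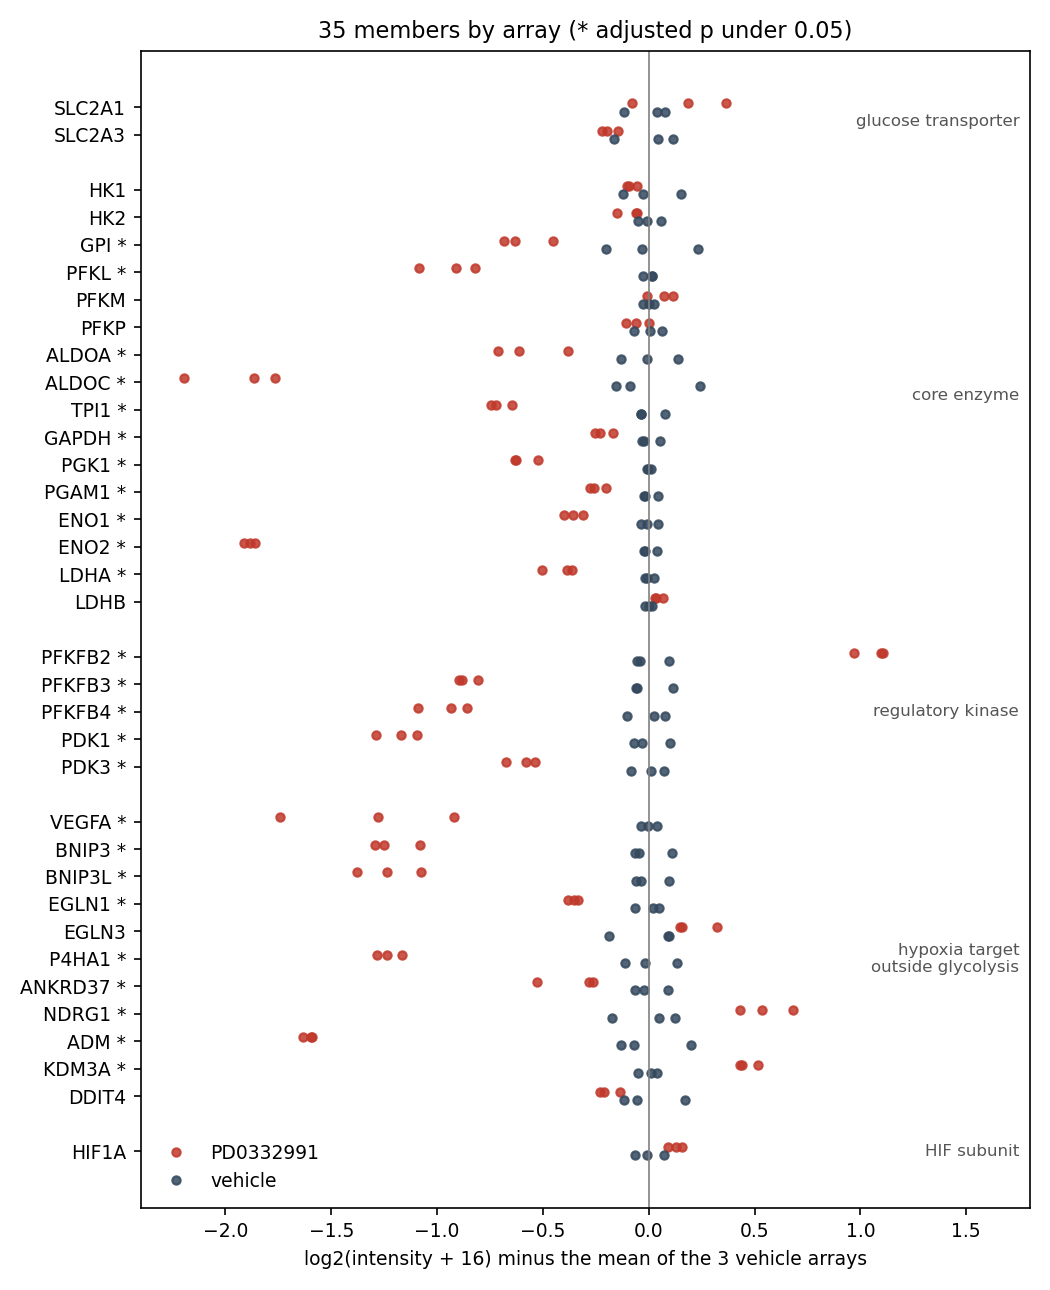
Each point is 1 array, placed by its log2(intensity + 16) minus the mean of the 3 vehicle arrays for that gene, for the 35 measured members in order of role. Stars mark adjusted p under 0.05 in limma. ALDOC, ENO2 and ADM have the means farthest to the left, while PFKFB2, NDRG1 and KDM3A have all PD0332991 points to the right of the vehicle points. So do LDHB, EGLN3 and HIF1A, narrowly and without passing.

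The glucose transporters did not pass. SLC2A1, which encodes GLUT1, stood at 151, 210 and 184 with PD0332991 and at 146, 165 and 169 with vehicle, overlapping groups. SLC2A3, which encodes GLUT3, stood at 322, 309 and 305 with PD0332991 and at 318, 389 and 370 with vehicle, again overlapping, at −0.19 on the log2 scale (SE 0.09, limma adjusted p = 0.166). Without vehicle replicate 1 it was −0.27 and passed (adjusted p = 0.0487, range over alternatives 0.0487 to 0.949).

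Of the 16 core enzymes, limma called 11 lower, 0 higher and 5 neither, and also 0 higher at an unadjusted p under 0.05. The share that fell was 68.8%, where 13.6% of all genes fell and 15.6% rose. The median change of the core enzymes was −0.39 on the log2 scale. At least 1 gene fell at each step from glucose 6-phosphate isomerase to enolase, and lactate dehydrogenase A fell too. At the phosphofructokinase step this was PFKL alone, and the call of GAPDH was lost under many alternatives. The entry step had no core enzyme that fell. The hexokinase genes HK1 and HK2, whose products trap glucose in the cell, stood at −0.08 (SE 0.08) and −0.09 (SE 0.06) on the log2 scale without passing. HK2, a HIF target in other cells, had 2 dimmer probe sets that were higher, by 0.37 and 0.49 on the log2 scale. Averaged over its 3 probe sets HK2 came to 0.26 (limma adjusted p = 0.0345, range over alternatives 0.0345 to 0.8).

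GPI, which turns glucose 6-phosphate into fructose 6-phosphate, stood at 1995, 2265 and 1927 with PD0332991 and at 2698, 3030 and 3652 with vehicle. All PD0332991 arrays lay below all vehicle arrays, at −0.59 on the log2 scale (SE 0.13, limma adjusted p = 0.0167). The call was lost without PD0332991 replicate 1 or 3 or vehicle replicate 2 (adjusted p 0.0504 to 0.0605).

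Phosphofructokinase commits sugar to glycolysis, and of its genes the liver-type PFKL fell. PFKL was at 137, 128 and 112 with PD0332991 and at 250, 258 and 258 with vehicle, 1.92-fold lower (log2 −0.94, SE 0.08, limma adjusted p = 4.5e-04). The muscle-type gene PFKM was at 0.06 (SE 0.06) and the platelet-type gene PFKP at −0.06 (SE 0.06), and neither passed. Both were read brighter than PFKL. PFKM averaged 1017 with PD0332991 and 975 with vehicle, and PFKP 2176 and 2262.

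ALDOC, an aldolase gene first known from brain, was among the members with the largest decreases, beside ENO2 and ADM, whose order depends on the pseudocount. With a pseudocount of 1, ALDOC was at −2.02, ENO2 at −2.05 and ADM at −2.08 on the log2 scale. ALDOC stood at 246, 229 and 179 with PD0332991 and at 823, 785 and 1039 with vehicle. Every PD0332991 array was below every vehicle array, and the change was 3.85-fold (log2 −1.94, SE 0.15, limma adjusted p = 3.3e-04). ALDOA, the aldolase gene of most tissues, fell too, at 2826, 3557 and 3028 with PD0332991 and 4229, 4612 and 5110 with vehicle (log2 −0.57, SE 0.11, limma adjusted p = 0.0122).

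The enzymes from triose phosphates to enolase fell too. TPI1, triose phosphate isomerase, was at 3341, 3590 and 3400 with PD0332991 and at 5476, 5474 and 5921 with vehicle. Its 2 bright probe sets had log2 fold changes of −0.70 and −0.69 (SE 0.06 for the first, limma adjusted p = 5.2e-04). Its dim probe set, at 32.1 with PD0332991 and 28.9 with vehicle, was at 0.07, and it is the one left when probe sets ending in _x_at or _s_at are set aside (limma adjusted p = 0.857, range over alternatives 5.6e-06 to 0.857). Averaged over the 3, TPI1 was at −0.44. PGK1, phosphoglycerate kinase, was at 6848, 7362 and 6821 with PD0332991 and at 10507, 10663 and 10559 with vehicle (log2 −0.59, SE 0.06, limma adjusted p = 6.9e-04). All 6 PGK1 probe sets fell, with log2 fold changes of −1.21 to −0.51.

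GAPDH, often used as a control gene, was at 9530, 9951 and 9370 with PD0332991 and at 10926, 11023 and 11607 with vehicle. The groups did not overlap, but the change was small (log2 −0.22, SE 0.06, limma adjusted p = 0.0332). It was −0.14 after quantile normalization, and the call was lost there, under median and 75th percentile centring, when probe sets were averaged and without any 1 of the 6 arrays (adjusted p 0.0503 to 0.112). PGAM1, phosphoglycerate mutase, was at 5346, 5569 and 5284 with PD0332991 and at 6315, 6600 and 6305 with vehicle (log2 −0.25, SE 0.05, limma adjusted p = 0.0184). It lost its call under median centring (0.0586) and without PD0332991 replicate 3 or vehicle replicate 1 or 2 (0.0545 to 0.0745).

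ENO2, the enolase gene of neurons and a HIF target, stood at 86.8, 88.7 and 84.9 with PD0332991 and at 358, 360 and 374 with vehicle. Both groups were tight, and the decrease of 3.69-fold had the lowest adjusted p of the list (log2 −1.89, SE 0.05, limma adjusted p = 2.4e-05). ENO1, the enolase of most cells, averaged 9998 ± 307 with PD0332991 and 12801 ± 379 with vehicle (SD, n = 3 each), or −0.36 on the log2 scale (SE 0.06, limma adjusted p = 0.00493), and −0.57 averaged over its 4 probe sets. LDHA, which makes lactate from pyruvate, was at 8024, 8135 and 7382 with PD0332991 and at 10414, 10661 and 10360 with vehicle (log2 −0.42, SE 0.06, limma adjusted p = 0.00357). LDHB, the isoform that favours the reverse reaction, was at 11240, 10994 and 10979 with PD0332991 and at 10602, 10868 and 10771 with vehicle. Its groups did not overlap, yet its change of 0.04 did not pass (SE 0.05, limma adjusted p = 0.598).

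**Figure D2:**
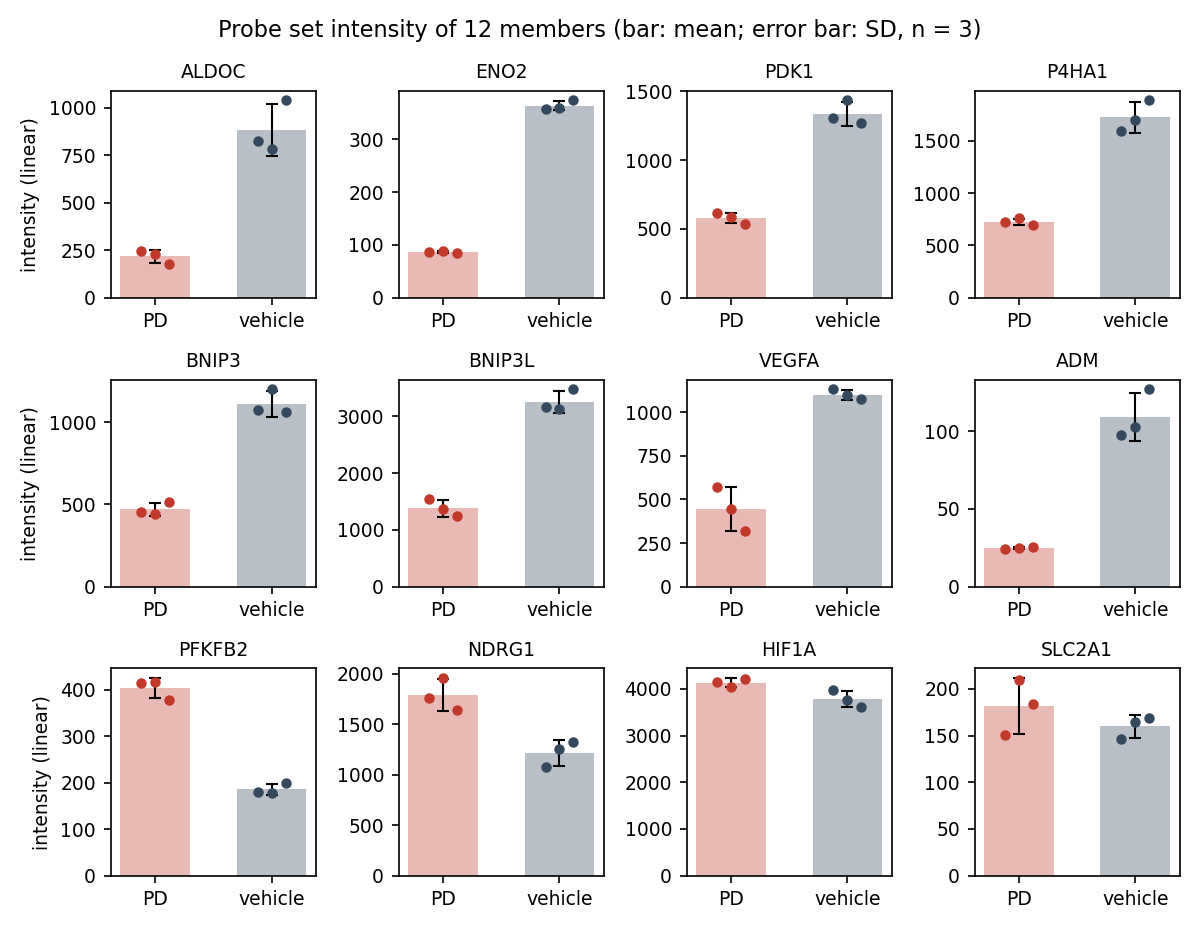
Deposited intensity of 12 members in each of the 6 arrays, linear axes starting at 0, with PD0332991 (PD) left of vehicle, bars for means and error bars for SD (n = 3 each). In the first 8 panels every PD0332991 array lies below every vehicle array, in PFKFB2 and NDRG1 and narrowly in HIF1A every one lies above, and in SLC2A1 the groups overlap.

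Of the 5 regulatory kinases, 4 fell and 1 rose, where 13.6% of all genes fell and 15.6% rose. PFKFB2, PFKFB3 and PFKFB4 make and break down fructose 2,6-bisphosphate, the activator of phosphofructokinase. PFKFB3, the strongest producer among them, was at 578, 610 and 572 with PD0332991 and at 1036, 1169 and 1035 with vehicle (1.82-fold lower, log2 −0.86, SE 0.07, limma adjusted p = 3.9e-04). PFKFB4 was at 133, 125 and 111 with PD0332991 and at 235, 259 and 268 with vehicle (log2 −0.96, SE 0.09, limma adjusted p = 5.3e-04). Averaged over its 2 probe sets PFKFB4 was at −0.58. PFKFB2, the heart-type gene, moved the opposite way. Its intensity was 414, 416 and 378 with PD0332991 and 179, 178 and 199 with vehicle, 2.08-fold higher (log2 1.06, SE 0.07, limma adjusted p = 2.0e-04). Its other probe sets were at 0.85, 0.80 and 0.14, the last below 5 intensity units in both groups.

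PDK1 and PDK3 phosphorylate and shut pyruvate dehydrogenase, the gate from glycolysis to the mitochondrion. PDK1 stood at 615, 584 and 537 with PD0332991 and at 1304, 1434 and 1271 with vehicle (2.27-fold lower, log2 −1.19, SE 0.08, limma adjusted p = 1.9e-04). PDK3 was at 819, 794 and 742 with PD0332991 and at 1127, 1206 and 1258 with vehicle (log2 −0.60, SE 0.07, limma adjusted p = 0.00148). All 3 PDK1 and all 5 PDK3 probe sets fell, the PDK1 ones with log2 fold changes of −1.19 to −0.49 and −0.76 when averaged.

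Of the 11 hypoxia targets outside glycolysis, 7 fell, 2 rose and 2 passed in neither direction, and their median was −0.36. That is 63.6% falling and 18.2% rising, against 13.6% and 15.6% of all genes, so the share that rose was near that over all genes. All 11 lay among the brighter genes, of which 3379 of 10223 rose when tested alone, a larger share than 18.2%. ADM encodes adrenomedullin, a vasodilator peptide. It was at 24.1, 25.1 and 25.3 with PD0332991 and at 97.6, 103 and 127 with vehicle (log2 −1.61, SE 0.10, limma adjusted p = 1.3e-04). Its level with PD0332991 is near the pseudocount, which sets much of the size of this change, −0.96 with a pseudocount of 64 and −2.08 with 1. VEGFA, the angiogenic growth factor gene, was at 573, 444 and 317 with PD0332991 and at 1130, 1096 and 1072 with vehicle. The PD0332991 arrays of VEGFA were spread widely but all lay below the vehicle arrays (log2 −1.31, SE 0.20, limma adjusted p = 0.00429). Averaged over its 4 probe sets VEGFA was at −0.70.

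The mitophagy receptor genes both fell. BNIP3 was at 456, 443 and 516 with PD0332991 and at 1072, 1200 and 1060 with vehicle (log2 −1.21, SE 0.09, limma adjusted p = 2.3e-04). BNIP3L, also called NIX, was at 1535, 1368 and 1241 with PD0332991 and at 3171, 3121 and 3473 with vehicle (log2 −1.23, SE 0.09, limma adjusted p = 3.0e-04). Both probe sets of each gene fell, with log2 fold changes of −1.69 and −1.21 for BNIP3 and of −1.23 and −1.11 for BNIP3L.

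P4HA1, a collagen prolyl hydroxylase subunit, stood at 723, 758 and 698 with PD0332991 and at 1591, 1699 and 1889 with vehicle (2.34-fold lower, log2 −1.23, SE 0.08, limma adjusted p = 1.8e-04). Its other probe set, at 7.18 with PD0332991 and 5.38 with vehicle, gave 0.11 when names ending in _x_at or _s_at were set aside (limma adjusted p = 0.62, range over alternatives 1.8e-06 to 0.62). Averaged over both, P4HA1 was at −0.56. EGLN1, the main oxygen sensor, averaged 1342 ± 23.4 with PD0332991 and 1723 ± 69.4 with vehicle (SD, n = 3 each), or −0.36 on the log2 scale (SE 0.06, limma adjusted p = 0.00512). ANKRD37, an ankyrin-repeat protein gene, was at 121, 146 and 148 with PD0332991 and at 178, 194 and 173 with vehicle (log2 −0.36, SE 0.09, limma adjusted p = 0.0308). Its call was lost without PD0332991 replicate 1 or 2 or vehicle replicate 1 or 2 (adjusted p 0.0504 to 0.101) and with the mean of its probe sets (−0.16, 0.187).

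NDRG1 and KDM3A went against the direction of most. NDRG1, a differentiation and stress gene, was at 1760, 1954 and 1641 with PD0332991 and at 1073, 1251 and 1322 with vehicle (log2 0.55, SE 0.10, limma adjusted p = 0.0105). KDM3A, a histone H3 lysine 9 demethylase, was at 3046, 2864 and 2890 with PD0332991 and at 2050, 2179 and 2140 with vehicle (log2 0.46, SE 0.06, limma adjusted p = 0.00188). In both, every PD0332991 array was above every vehicle array. Averaged over its 2 probe sets KDM3A lost its call (0.33, limma adjusted p = 0.096, range over alternatives 3.6e-05 to 0.096). EGLN3, an oxygen sensor induced by HIF, was at 0.21 (SE 0.10), and DDIT4, an mTORC1 inhibitor gene, at −0.19 (SE 0.09), and neither passed. HIF1A itself was at 4146, 4037 and 4220 with PD0332991 and at 3973, 3767 and 3619 with vehicle, groups that did not overlap, at 0.13 on the log2 scale (SE 0.06, limma adjusted p = 0.179). HIF-1 alpha is controlled mainly as protein, which was not measured.

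Genes of the same step or family were set against each other by the difference between their log2 changes on the same arrays, for 12 pairs that share some genes. In 9 of the 12 the 3 PD0332991 arrays did not overlap the 3 vehicle arrays, each at an exact permutation p of 0.1 (two-sided), below which a design of 3 and 3 arrays cannot go, and 0.133 after Benjamini-Hochberg adjustment over the 12. None could therefore pass 0.05. Of all single genes, 43.0% did not overlap in either direction, and the share over other gene pairs was not computed. ENO2 minus ENO1 was −1.53 and ALDOC minus ALDOA −1.37 on the log2 scale. The difference was −1.53, −1.55 and −1.51 in the 3 PD0332991 arrays for the enolases and −1.06, −1.48 and −1.58 for the aldolases, each against the vehicle mean. PFKM minus PFKL was 1.00 and PFKP minus PFKL 0.88, and LDHA minus LDHB was −0.46. PFKFB4 minus PFKFB2 was −2.02, or −1.29 with probe sets averaged.

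PDK1 minus PDK3 was −0.59 on the brightest probe sets and −0.16 with probe sets averaged. EGLN3 minus EGLN1 was 0.56, and SLC2A3 minus SLC2A1 was −0.35, or −0.15 with probe sets averaged. The groups overlapped for HK2 against HK1, for PFKFB4 against PFKFB3 with a difference of −0.10 (exact permutation p = 0.4), and for BNIP3 against BNIP3L with 0.02 (exact permutation p = 1).

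**Figure D3:**
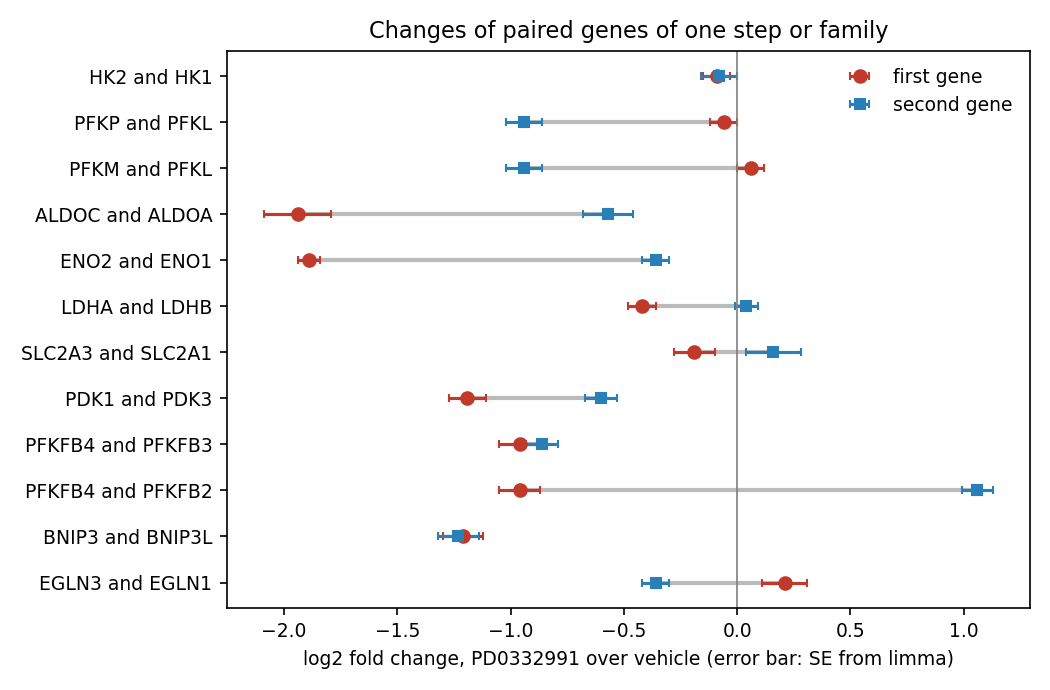
Log2 fold change of PD0332991 over vehicle for the genes of 12 pairs, a circle for the first and a square for the second gene named, with SE from limma and a grey line for the difference. The longest lines are those of PFKFB4 and PFKFB2, of ENO2 and ENO1, and of ALDOC and ALDOA, and the marks of BNIP3 and BNIP3L coincide.

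The 35 members had 79 probe sets, of which 46 fell, 7 rose and 26 did not pass when all 41091 named probe sets were tested together, where 12.1% fell and 12.8% rose. No member had probe sets called in both directions. Every probe set fell for 15 members, 8 of which had at least 2. The size differed between probe sets of a gene. For ENO1 the log2 fold change was −0.36 on the probe set at 12801 with vehicle, −0.65 on that at 7282, −0.72 on that at 285 and −0.54 on that at 115. For PGK1 it was −0.59 at 10576, −0.75 at 6936, −0.93 at 4807, −0.51 at 4583, −1.21 at 430 and −0.84 at 137. The highest value in the table was 16362, and what the top of the scale does to these sizes was not tested. Glycolytic enzymes also have many processed pseudogenes, and 15 members were read only by probe sets whose names end in _x_at or _s_at, a mark of probes shared between transcripts.

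**Figure D4:**
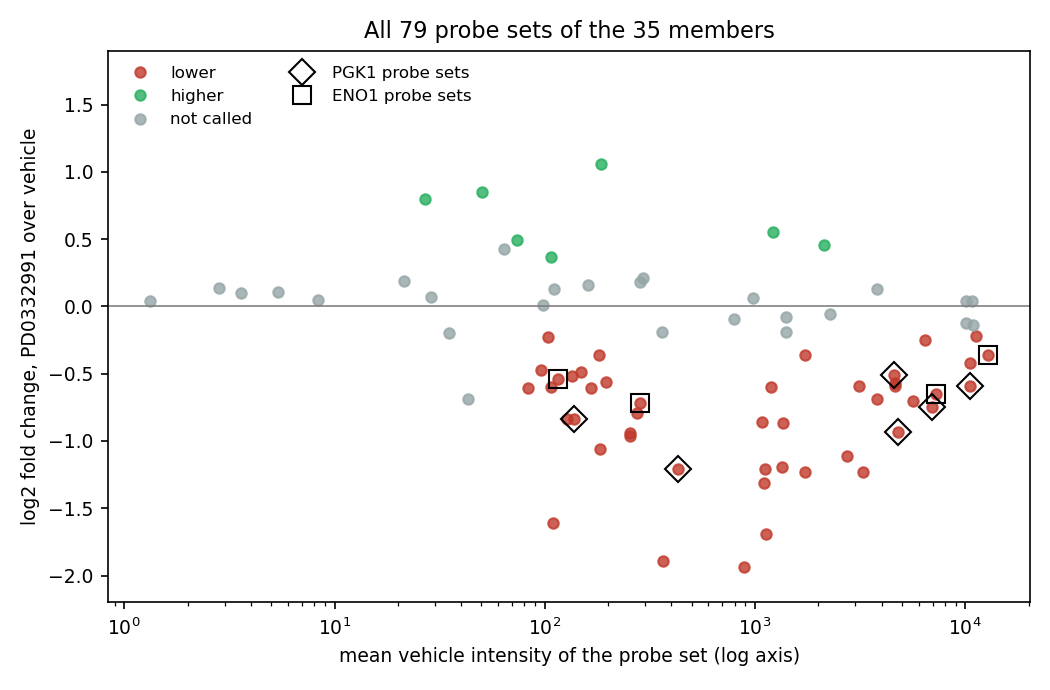
Log2 fold change of PD0332991 over vehicle against the mean vehicle intensity (log axis) for all 79 probe sets of the members, coloured by call, with those of PGK1 and ENO1 outlined. The lowest points are ALDOC (−1.94), ENO2 (−1.89) and the second probe set of BNIP3 (−1.69), and the brightest ENO1 and PGK1 probe sets lie at −0.36 and −0.59.

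Other genes of these pathways moved in both directions. Of 40 measured further genes of glycolysis and pyruvate use, 13 fell, 2 rose and 25 passed in neither direction, and their median was −0.05, beside 13.6% of all genes falling and 15.6% rising. The brighter genes held 22 of the 40, and 13 of these 22 fell, where 29.0% of all brighter genes fell. PKM, pyruvate kinase, the last enzyme before pyruvate, was at 114, 129 and 107 with PD0332991 and at 281, 239 and 226 with vehicle (log2 −0.99, SE 0.10, limma adjusted p = 9.7e-04). SLC16A7, a monocarboxylate transporter gene, fell by 0.77 on the log2 scale. LDHC, the testis lactate dehydrogenase gene, fell by 1.84 on it. Hybridisation of the LDHC probe set to related transcripts was not tested. HKDC1, a hexokinase-like gene, rose by 1.39 (SE 0.05), or 0.64 with probe sets averaged, and TIGAR, which lowers fructose 2,6-bisphosphate, rose by 0.59 (SE 0.06).

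Of 48 further hypoxia-response genes, 11 fell, 7 rose and 30 passed in neither direction, and their median was −0.07. That is 22.9% falling and 14.6% rising, against 13.6% and 15.6% of all genes, so the share that rose was no higher than over all genes. The brighter genes held 32 of the 48, and 11 of these 32 fell, where 29.0% of all brighter genes fell. PPFIA4, a liprin gene, had a log2 fold change of −2.06, from intensities of 23.2, 13.6 and 11.0 with PD0332991 against 95.6, 102 and 157 with vehicle, and −1.18 with a pseudocount of 64. ZNF395 was at −1.26, but its probe set with no _x_at or _s_at ending gave 0.08 (limma adjusted p = 0.74, range over alternatives 4.3e-06 to 0.74). AK4, a mitochondrial adenylate kinase, was at −0.85 (adjusted p = 0.0214) and lost its call without PD0332991 replicate 2 or 3 or vehicle replicate 2 or 3 (0.0576 to 0.0708). PNRC1, a nuclear receptor coactivator gene, rose by 1.74 (SE 0.13), HEY1, which is also a NOTCH target, by 0.81 and the ephrin gene EFNA1 by 0.72. HEY1 and EFNA1 were dim and gave 0.42 and 0.46 with a pseudocount of 64.

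Of 17 genes of oxygen sensing and HIF control, 5 fell and 4 rose, or 29.4% and 23.5%, against 13.6% and 15.6% of all genes. The brighter genes held 15 of the 17. When the 10223 brighter genes were tested alone, 29.0% fell and 3379 rose, so neither share of this list stands out among them. The number that fell was 3 of 17 without vehicle replicate 1, where 2087 of all 19775 genes fell. EPAS1, which encodes HIF-2 alpha, stood at 2253, 2393 and 2030 with PD0332991 and at 1015, 1087 and 1268 with vehicle (log2 0.98, SE 0.11, limma adjusted p = 0.00113). Averaged over its probe sets EPAS1 was at 0.23 and did not pass (limma adjusted p = 0.0525, range over alternatives 3.9e-05 to 0.0525). The deubiquitinase gene USP20 rose by 0.98 and HIF1AN, the asparaginyl hydroxylase that blocks HIF coactivation, by 0.40, or 0.25 with probe sets averaged. EP300, a coactivator, was at 0.29 and lost its call without PD0332991 replicate 1 or 3 or any 1 vehicle array (adjusted p 0.0545 to 0.109). PASK was at −1.14 and the ubiquitin ligase gene SIAH1 at −0.55. On probe sets with no _x_at or _s_at ending they were at −0.67 and −0.12, and SIAH1 did not pass (limma adjusted p = 0.374, range over alternatives 1.7e-04 to 0.374).

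Of 10 measured genes of the pentose phosphate pathway, 5 fell and 3 rose, where 13.6% of all genes fell and 15.6% rose. When the brighter genes were tested alone, 6 of the 9 among them fell, where 29.0% of all brighter genes fell. TKT, transketolase, fell by 0.73 (SE 0.12) and TALDO1, transaldolase, by 0.40. PGD was at −0.56 and, with probe sets averaged, at −0.11 (limma adjusted p = 0.507, range over alternatives 9.2e-04 to 0.507). H6PD rose by 0.52, or 0.25 with probe sets averaged. The number that fell was 3 without PD0332991 replicate 1 or 3 or vehicle replicate 2, and TALDO1 lost its call without PD0332991 replicate 1 (adjusted p = 0.0509). TKTL1 at 0.39 and PGLS at 0.31 were close to the threshold (adjusted p 0.0465 and 0.0481), and the number that rose was 1 of 10 without PD0332991 replicate 2 or 3 or vehicle replicate 1 or 2, no higher than the share over all genes.

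**Figure D5:**
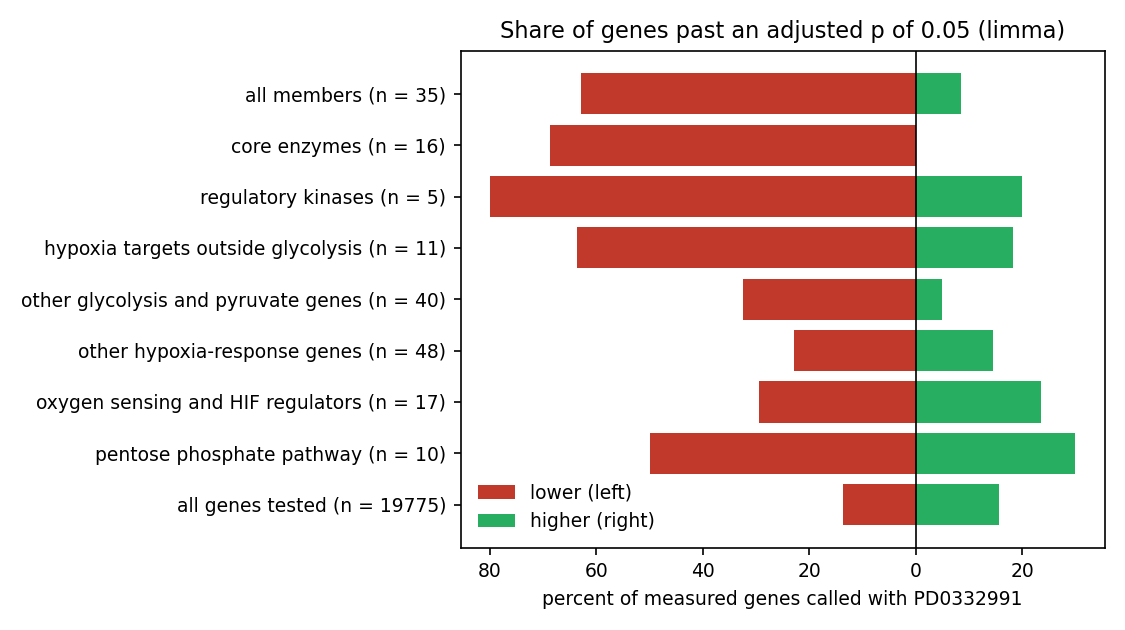
Percent of measured genes that fell (left) or rose (right) at an adjusted p under 0.05 in limma, for all members, 3 of their roles, 4 further gene lists and all genes tested. The members reach 62.9% on the left, against 13.6% for all genes, and the further lists run from 22.9% of hypoxia-response genes to 5 of 10 pentose phosphate genes. The brighter genes, of which 29.0% fell when tested alone, are not drawn.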

How the data were processed

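RNA was measured in 6 samples, 3 with PD0332991 and 3 with vehicle. Per the labels' protocols, total RNA was biotin-labelled for Affymetrix arrays. The authors deposited 1 linear intensity per probe set and array. Their summarisation and scaling steps are not given in the sources used here. The values ran from 0.56 to 16362, and 25.5% lay below 16. The 62 control probe sets were left out. The platform annotation gave 1 symbol for 41091 of the others, several for 1801 and none for 11721, and symbols were updated by gene ID through RefSeq (GRCh38.p14), where 54 found no match. Each gene took its brightest probe set.

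Values were compared as log2(intensity + 16) in limma (version 3.58.1, under R 4.3.3) through lmFit and eBayes, with 4 residual degrees of freedom. Two-sided p-values were adjusted by Benjamini-Hochberg across 19775 genes, at a threshold of 0.05. Pairs of genes were compared with exact permutation tests over arrays. In simulated data for this comparison with 19775 genes, limma called 18 of 50 at a true log2 change of 0.5, 44 of 50 at 1, 49 of 50 at 2, and 5 of 19575 unchanged genes. In the data 5786 genes were called. With so few changed genes, the adjusted threshold was stricter in the simulation, and its counts do not give the power of the real comparison. The members and lists were chosen with earlier results of these data known. All 38 members were to be named, with up to 4 largest changes of each further list and up to 2 against its direction. Alternatives changed 1 choice at a time: a block for the replicate number, dropping each array, centring on the median or the 75th percentile, quantile normalization, dim genes removed, averaged or restricted probe sets, array weights, a trended or robust eBayes, and pseudocounts of 1 and 64. Figures were drawn with matplotlib 3.10.9.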

Additional observations from a re-analysis of the deposited data

How the results depend on the processing

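The 22 members that fell numbered 18 to 21 with 1 array left out and the 3 that rose stayed at 3. Of all 19775 genes, 2081 to 2518 fell and 2170 to 3171 rose with 1 array left out. The core enzymes that fell numbered 8 to 10 and the hypoxia targets that fell 6 to 7. The medians ran from −0.39 to −0.35 over all members, −0.41 to −0.35 over core enzymes, −0.41 to −0.34 over hypoxia targets and −0.45 to −0.36 over the remaining members (main value −0.39). With probe sets named _x_at or _s_at set aside, 20 members were measured, and 12 fell and 1 rose, where 2049 of 17098 genes fell and 2359 rose. Of the 15 not measured then, 8 had fallen and 2 had risen. Core enzymes that fell were 4 of 8 there and hypoxia targets that rose 0, and the medians were −0.43 over all members, −0.30 over core enzymes, −0.78 over hypoxia targets and −0.25 over the rest. With the mean of probe sets, 1 core enzyme (HK2) and 1 hypoxia target rose, and those medians were −0.42, −0.43, −0.42 and −0.30. Quantile normalization gave −0.33 for core enzymes and −0.35 for the rest. Of 25 members called, 18 kept their call under every alternative that measured them, and the cause of the other losses was not tested. Among pair differences that overlapped, HK2 minus HK1 ran from −0.11 to 0.05 and BNIP3 minus BNIP3L from −0.12 to 0.12 with 1 array left out. HK2 minus HK1 was 0.01 with quantile normalization and 0.34 with the mean of probe sets, where BNIP3 minus BNIP3L was −0.28 and PFKFB4 minus PFKFB3 was 0.28. The last was 0.04 with a pseudocount of 64, and −0.16 to −0.03 with 1 array left out. By gene, HK2 turned to 0.26 with the mean of probe sets, and TPI1, P4HA1 and ZNF395 to 0.07, 0.11 and 0.08 with those probe sets set aside. There, 8 further glycolysis genes, 5 further hypoxia genes and 3 oxygen-sensing genes fell. In the same setting 3 pentose phosphate genes fell and 1 rose, as with the mean of probe sets. Over all genes, 2049 of 17098 fell and 2359 rose in that setting. With the mean of probe sets, 2446 of 19775 fell and 2599 rose. With a robust eBayes or a pseudocount of 1, 1 pentose phosphate gene rose, where 3011 and 2835 of all 19775 genes rose.

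The labels give same-numbered arrays nothing in common but the number, and their deviations from the group means correlated at 0.003, 0.076 and 0.083, too weakly to treat them as pairs. Yet 5 of 6 arrays correlated best with their own number. Differently numbered arrays correlated at −0.079 to 0.022. The deviations are centred within each group and so depend on each other, and whether arrays were paired cannot be told from this count. With the replicate block, 4793 genes were called, 2273 falling and 2520 rising, against 5786 called without it. Under the block, 19 members and 3 oxygen-sensing genes fell and 3 members rose. The block ended the calls of GAPDH (limma adjusted p 0.094), PGAM1 (0.0519), ANKRD37 (0.0515), AK4 (0.0712), EP300 (0.0714) and PGLS (0.0864). No detection calls were used, so whether dim values stand above background is not known, which limits ADM, PPFIA4 and the dim probe sets.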
